A study of Mus musculus with 34 samples.

Results

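The effect of 1 floxed allele of Bcl11b was examined in DN3 thymocytes by comparing 6 HET with 5 WT libraries of RNA sequencing, 11 of the 34 libraries of the series. Libraries were assigned to groups by their labels. Both groups came from C57BL6/J mice with an Lck-Cre transgene, and both were sorted as CD25-positive DN3 cells positive for yellow fluorescent protein (YFP). The HET cells were Bcl11b flx/+, with 1 floxed allele, and the WT cells were Bcl11b +/+, with 0 floxed alleles, so Cre was present in both. Set beside them were 5 HET and 4 WT DN2 libraries of the same cross, labelled YFP-negative and CD25-positive, so that stage and YFP change together between DN2 and DN3. Also used were 5 libraries of Lck-Cre Bcl11b flx/flx cells (HOM, positive for YFP and CD25) and, from a Vav1-iCre cross, 4 HET and 2 WT libraries. The 3 HOM libraries of that cross, with 2 floxed alleles, were part of its fit and share in the estimate of the spread. Per the labels, 300000 cells went into each library. They do not say if the libraries of a group represent separate or pooled animals, so the p-values refer to the spread between libraries. Total counts were 17866546 to 28361054 in HET DN3 and 17285214 to 43105091 in WT DN3.

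Bcl11b encodes a zinc-finger transcription factor that thymocytes switch on as they commit to the T-cell lineage, and it is known for keeping genes of natural killer (NK) cells and other innate lymphocytes silent. Double-negative (DN) thymocytes lack CD4 and CD8 and pass through the stages DN2 and DN3. At DN3 they depend on Notch and interleukin-7 signals and rearrange the gene of the T-cell receptor beta chain. Lck-Cre acts in thymocytes from about the DN2 to DN3 transition on, and Vav1-iCre recombines already in blood stem cells and hence throughout the blood system.

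In 3 of the 6 HET libraries, transcripts of other cells stood far above the rest. Levels are in RPKM, counts scaled to the exon length of a gene and the total of a library. In HET replicates 2 and 3, Clu, the clusterin gene, active in many epithelia, stood at 709 and 261 RPKM, and the keratin gene Krt8 at 490 and 183 RPKM. In the remaining 4 HET and the 5 WT libraries Clu was at most 0.093 RPKM and Krt8 at most 0.595 RPKM. HET replicate 1 carried the mature T-cell transcripts Cd4 at 80.3 RPKM and Ccl5 at 29.4 RPKM, the globin transcript Hba-a1 at 884 RPKM and the neutrophil transcript S100a8 at 20.3 RPKM. S100a8 was at 0 in all the other DN3 libraries. Cd4 also stood at 11.8, 5.94 and 3.56 RPKM in HET replicates 4, 5 and 6, against 4.37, 2.80, 1.16, 1.12 and 0.798 RPKM in WT replicates 1 to 5, so the ranges overlap. Summed over all 15 mature T-cell markers, the levels ran from 172 to 377 RPKM in HET and from 157 to 267 RPKM in WT. Over the 17 epithelial markers they ran from 29.2 to 2166 RPKM in HET and from 39.4 to 53.4 RPKM in WT. Krt18, Krt19, Krt7, Wfdc2, Cdh1 and Elf3 were also higher in HET replicates 2 and 3 than in any other DN3 library. Other members were not high in both: Epcam had 13.8 and 33.9 RPKM there, against 20.89 to 23.95 RPKM in WT. Cldn4 had 3.66 and 8.85 RPKM there, against 8.26 to 15.1 RPKM in WT, and Krt5 and Krt14 stood at 0. The name epithelial RNA used below rests on the members that were high. Results are therefore given with all libraries and, in addition, without HET replicates 1, 2 and 3, or without 8 libraries. The 8 are those 3 and 5 others of the Lck cross in which such transcripts stood high (HET DN2 replicates 1 and 2, WT DN2 replicate 2, HOM replicates 2 and 3). Such transcripts also occur in libraries that were kept. HOM replicate 4 had 42.8 RPKM of Hba-a1, HOM replicate 1 had 11.5 RPKM of Krt8 and HET DN2 replicate 4 had 13.9 RPKM of Cd4. Both settings keep the same 3 HET and 5 WT libraries at DN3 and differ only in which other libraries share in the estimate of the spread.

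**Figure D1:**
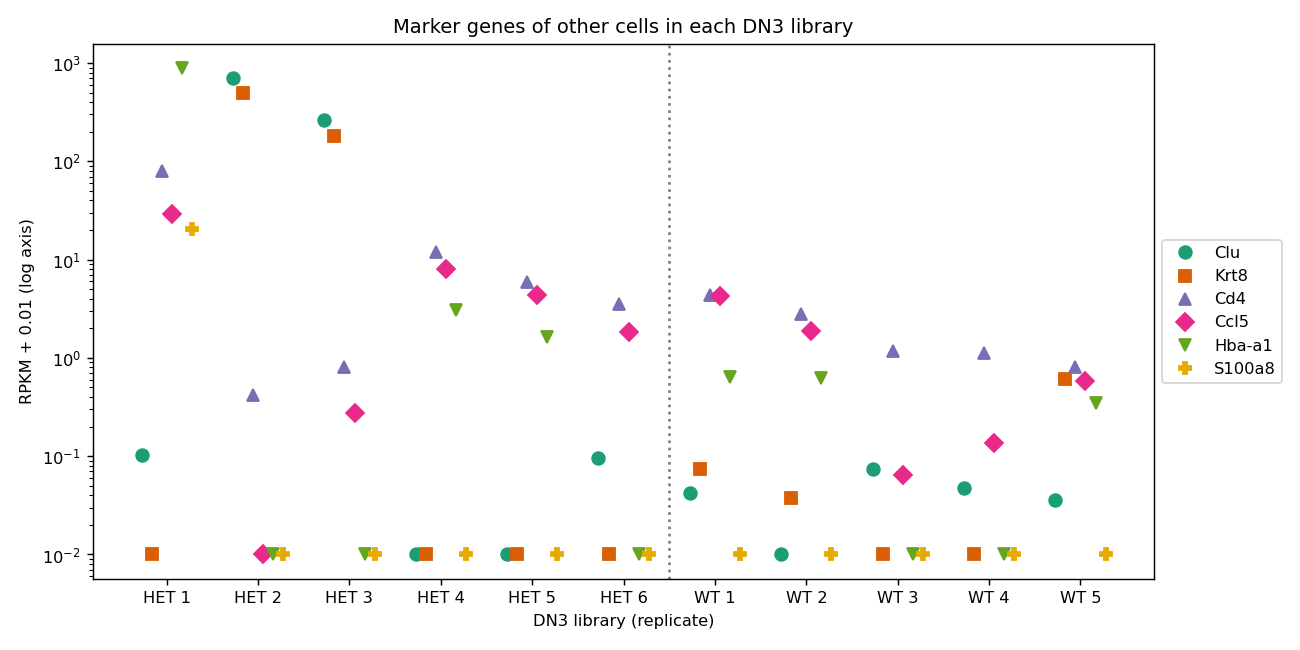
Levels of 6 marker genes of other cells in each DN3 library, as RPKM + 0.01 on a log axis, with the 6 HET replicates on the left and the 5 WT replicates on the right. Clu and Krt8 are high in HET 2 and HET 3, while Cd4, Ccl5, Hba-a1 and S100a8 are highest in HET 1.

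The floxed gene itself did not differ detectably in its summed exon counts. Bcl11b (NM_001079883, mm9 chromosome 12, 109148613 to 109241624, minus strand) had 101, 92.0, 123.1, 114, 97.7 and 97.2 RPKM in HET DN3 replicates 1 to 6. The WT DN3 replicates 1 to 5 had 124, 114, 89.1, 103 and 101 RPKM, in the same range. The mean of log2(RPKM + 1) differed by -0.03, HET minus WT (exact 2-sided permutation test, p = 0.777; adjusted p = 0.81 over 6 tests), and the sign turned when HET replicate 2 or WT replicate 1 was left out. The labels do not give the floxed exons, and counts summed over all exons need not show the deletion of some, so this is no check of the genotype. HOM libraries had 49.6 ± 10.3 RPKM (SD, n = 5). Transcripts known from DN3 cells were present in both groups. The median of Il2ra, which encodes CD25, was 284 RPKM in HET and 211 RPKM in WT, and that of Ptcra, the alpha chain of the pre-T-cell receptor, was 74.5 RPKM in HET and 81.8 RPKM in WT. Both also occur at DN2, with 333 to 341 RPKM of Il2ra and 40.8 to 74.9 RPKM of Ptcra in WT DN2. Their presence is therefore no check of the stage.

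With all libraries, 900 of 12218 genes tested (7.37%) were called at an adjusted p under 0.05 by edgeR's quasi-likelihood test with Benjamini-Hochberg adjustment. Of these, 526 were higher in HET (4.31%) and 374 were lower (3.06%), and most changes were small: 180 of the higher and 8 of the lower genes passed 2-fold. The number of calls depended on the libraries in the fit. It was 87 without HET replicate 1, 38 without HET replicates 2 and 3, and 6 without all 3 (0.0491%). Without the 8 libraries 75 genes were called (0.614%), 70 of them higher (0.573%) and 5 lower (0.0409%), and 63 of the 75 were among the 900. Leaving out single DN3 libraries gave between 10 calls (without WT replicate 3) and 1662 calls (without HET replicate 5). With each of the 11 DN3 libraries left out in turn, 10 genes were called every time, all of them higher: Cd160, Klhdc2, Necab1, Appl2, Camk2b, Oxr1, Fbxo22, Marf1, Rnf14 and Ube2q2, all but Cd160 and Klhdc2 named here after their values were seen.

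**Figure D2:**
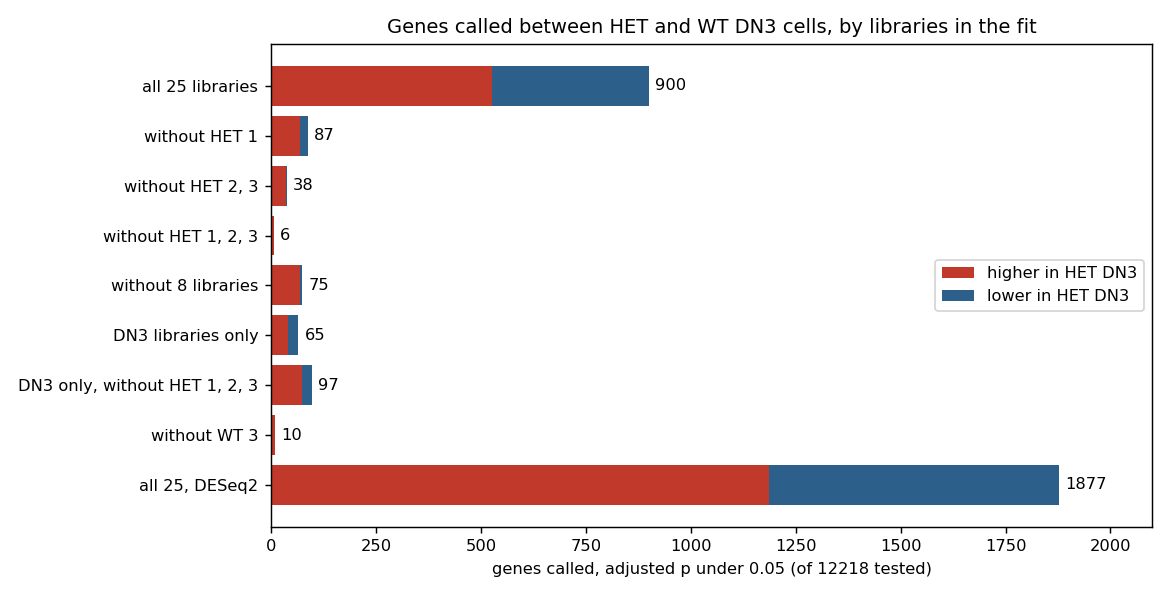
Number of genes called higher (red) and lower (blue) in HET DN3 against WT DN3, by the libraries in the fit and, in the last bar, by DESeq2. The count is 900 with all 25 Lck libraries, 6 without HET replicates 1, 2 and 3, 75 without 8 libraries and 1877 with DESeq2.

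Transcripts of 2 cytokine receptor chains rose in HET DN3 cells, Il7r by about 1.51-fold and Il9r by about 3.56-fold. Il7r encodes the alpha chain of the receptor for interleukin-7, the main survival cytokine of early thymocytes, and Il9r the corresponding chain for interleukin-9. Both chains pair with the common gamma chain. Il7r (NM_008372, mm9 chromosome 15, 9435914 to 9459631, minus strand) had 42.4, 48.6, 51.6, 57.8, 51.2 and 51.1 RPKM in HET replicates 1 to 6, against 34.3, 36, 28.1, 32.2 and 31.6 RPKM in WT replicates 1 to 5. Il9r (NM_001134458, mm9 chromosome 11, 32088997 to 32100279, minus strand) had 11.9, 5.75, 19.0, 12.2, 13.1 and 12.4 RPKM in HET, against 3.89, 3.67, 2.88, 3.06 and 3.39 RPKM in WT. In bulk libraries a higher share of expressing cells and more RNA per cell cannot be told apart. For both genes every HET library lay above every WT library, which held for 459 of all genes tested (3.76%); 741 genes separated the groups in either direction (6.06%). HET replicate 1 was lowest for Il7r and HET replicate 2 for Il9r. The log2 fold change of Il7r was 0.60 (SE 0.12, adjusted p = 0.0148) and that of Il9r 1.83 (SE 0.43, adjusted p = 0.025, edgeR). Without the 8 libraries they were 0.68 (SE 0.07, adjusted p = 0.000263) and 1.86 (SE 0.13, adjusted p = 1.83e-06). Without HET replicates 1, 2 and 3 alone, where the remaining DN2 and HOM libraries with epithelial RNA still share in the spread, neither was called, with adjusted p = 0.0826 for Il7r and 0.22 for Il9r in the edgeR fit. Nor was either called without HET replicates 2 and 3 (adjusted p = 0.0505 and 0.064, edgeR). Without the 3 Xist-positive DN3 libraries (HET 2 and 6, WT 4) the adjusted p was 0.0525 and 0.0562 (edgeR). Leaving out single libraries ended the call of Il7r without WT replicate 3 (adjusted p = 0.0661, edgeR) and that of Il9r without HET replicate 1 or 3 or WT replicate 3, 4 or 5 (adjusted p from 0.0515 to 0.105). Of 26 tested genes for cytokine receptors and their signalling, these 2 were called higher with all libraries and 0 lower. With 4.31% of all tested genes called higher, that count is near the background and is no result about the list, whose other members were not called. The list's median log2 fold change was 0.147, against 0.0206 over all genes tested.

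The promoters of these receptor genes and of Id2, described further on, are shown because the 3 genes were higher together. They are RefSeq sequences of build GRCm38.p6, 300 bases from before to just after the start of each gene, Il7r at chr15:9529827-9530126, Il9r at chr11:32200230-32200529 and Id2 at chr12:25096043-25096342, all on the minus strand and printed 5′ to 3′. Capitals mark, on either strand, the E-box CANNTG, bound by E proteins, and TGTGGT, bound by RUNX factors.
Il7r: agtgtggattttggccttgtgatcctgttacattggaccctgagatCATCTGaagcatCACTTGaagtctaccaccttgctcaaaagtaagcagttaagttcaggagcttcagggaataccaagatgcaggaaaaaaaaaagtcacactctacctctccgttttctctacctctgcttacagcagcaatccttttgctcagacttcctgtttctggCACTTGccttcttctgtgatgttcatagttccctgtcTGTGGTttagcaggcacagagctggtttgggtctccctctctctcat
Il9r: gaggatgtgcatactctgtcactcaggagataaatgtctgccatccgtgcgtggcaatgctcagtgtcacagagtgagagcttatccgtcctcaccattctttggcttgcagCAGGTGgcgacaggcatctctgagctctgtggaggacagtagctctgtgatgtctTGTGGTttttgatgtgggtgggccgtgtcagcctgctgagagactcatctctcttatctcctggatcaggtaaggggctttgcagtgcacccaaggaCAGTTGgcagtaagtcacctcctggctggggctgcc
Id2: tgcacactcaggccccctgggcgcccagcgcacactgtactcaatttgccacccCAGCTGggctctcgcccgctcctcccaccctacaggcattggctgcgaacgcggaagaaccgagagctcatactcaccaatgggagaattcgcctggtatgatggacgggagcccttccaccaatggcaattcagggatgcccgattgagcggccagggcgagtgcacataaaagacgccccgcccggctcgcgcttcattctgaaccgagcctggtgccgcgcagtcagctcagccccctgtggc
The E-box letters occurred at 3 places in the Il7r promoter, at 2 in that of Il9r and at 1 in that of Id2. At least 1 match is found in 72.3% of the 32851 promoters in the RefSeq table. The RUNX letters occurred at 1 place each in Il7r and Il9r and at 0 in Id2, and are found in 16.8% of all promoters. The letters TGGGAA, bound by RBPJ, the DNA-binding partner of Notch, were searched on both strands too and had 0 matches in the 3 windows, against 25.6% of all promoters. No match overlapped another, and a match describes the letters only.

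Heyl, a transcriptional repressor gene that Notch signals induce, was about 3.19-fold higher in HET DN3 cells. Heyl (NM_013905, mm9 chromosome 4, 122910799 to 122927113, plus strand) had 1.90, 2.59, 5.87, 4.91, 2.68 and 4.36 RPKM in HET replicates 1 to 6. In WT replicates 1 to 5 it had 1.18, 1.16, 1.14, 1.05 and 1.13 RPKM. The groups did not overlap, and the HET libraries spread far more widely than the WT libraries. The log2 fold change was 1.67 (SE 0.39, adjusted p = 0.0247, edgeR) with all libraries and 1.77 (SE 0.21, adjusted p = 0.000665) without the 8. It was not called without HET replicates 1, 2 and 3 alone (adjusted p = 0.149, edgeR), nor when HET replicate 3 or WT replicate 3, 4 or 5 was left out (adjusted p from 0.051 to 0.103). The call was also lost without HET replicates 2 and 3 (adjusted p = 0.0711) and without the 3 Xist-positive DN3 libraries (adjusted p = 0.0626, edgeR). Of the 16 tested Notch receptors and targets, Heyl alone was called higher and Myc alone lower, and the list's median was 0.0367. With 4.31% of all genes tested called higher and 3.06% lower, these counts are near the background and are no result about the list. Myc, a growth-promoting transcription factor gene, had 142 to 160 RPKM in HET and 174 to 210 RPKM in WT, a log2 fold change of -0.34 (SE 0.09, adjusted p = 0.0343, edgeR), and was not called without the 8 libraries (adjusted p = 0.113). Trib2, a pseudokinase gene, stood at 7.13 to 11.5 RPKM in HET and at 4.56 to 6.09 RPKM in WT without passing the test (adjusted p = 0.13, edgeR). Notch1 itself had a log2 fold change of 0.05 (SE 0.17).

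Cd160, which encodes a receptor of NK cells and innate-like T cells, had the smallest adjusted p with all libraries of the genes named, and was 3.66-fold higher in HET. Cd160 (NM_018767, mm9 chromosome 3, 96602686 to 96618444, minus strand) had 7.10, 4.58, 4.15, 4.06, 3.72 and 4.95 RPKM in HET replicates 1 to 6, against 1.15, 0.933, 1.24, 1.17 and 1.80 RPKM in WT replicates 1 to 5. The groups did not overlap, and HET replicate 1, which also held mature T-cell RNA, was highest. HET replicates 4 to 6 alone also lay above all WT libraries. The log2 fold change was 1.87 (SE 0.21, adjusted p = 5.96e-05, edgeR), 1.69 (SE 0.21, adjusted p = 0.00114) without the 8 libraries, and adjusted p was 0.00205 without HET replicates 1, 2 and 3. Of 11 tested NK and ILC1 genes (ILC, innate lymphoid cell), Cd160 was the only one called, although 10 of the 11 had a positive log2 fold change, with a median of 1.22. A count of 1 among 11 is near the 4.31% of all genes tested called higher and is no result about the list. Gzma, the gene of a cytotoxic granule protease, had 219 to 363 RPKM in HET and 174 to 229 RPKM in WT (log2 fold change 0.59, SE 0.23, adjusted p = 0.0942, edgeR). Nfil3, a transcription factor gene of NK cell development, had 0.621 to 3.54 RPKM in HET and 0.753 to 0.873 RPKM in WT (adjusted p = 0.086, edgeR). The values of both overlapped between the groups.

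Without HET replicates 1, 2 and 3, the 6 genes called were all higher: Cd160, Klhdc2, Necab1, Appl2, Camk2b and Icosl, of which the last 4 were named after their values were seen. Klhdc2 encodes a substrate receptor of a cullin ubiquitin ligase, Necab1 a calcium-binding protein known from neurons, Appl2 an endosomal adaptor, Camk2b a subunit of a calcium- and calmodulin-dependent kinase, and Icosl the ligand of the costimulator ICOS. Klhdc2 had 15.6, 17.0, 14.4, 14.3, 14.0 and 14.5 RPKM in HET and 8.48, 8.68, 7.65, 8.01 and 10.3 RPKM in WT, with a log2 fold change of 0.75 (SE 0.10, adjusted p = 0.00106, edgeR). Necab1 had 1.68, 1.27, 2.05, 2.22, 1.41 and 1.99 RPKM in HET and 0.330, 0.397, 0.217, 0.370 and 0.312 RPKM in WT, with a log2 fold change of 2.41 (SE 0.34, adjusted p = 0.00106, edgeR). Both genes separated the groups fully, in replicates 4 to 6 as in replicates 1 to 3. Appl2 (1.45 to 3.50 RPKM in HET, 0.184 to 0.929 RPKM in WT) also separated them. Camk2b (1.87 to 3.98 RPKM in HET, 1.20 to 1.91 RPKM in WT) and Icosl (2.17 to 5.36 RPKM in HET, 1.32 to 2.69 RPKM in WT) overlapped, Camk2b through HET replicate 2 and WT replicate 5, Icosl through HET replicates 1 and 2 and WT replicate 5. WT DN2 libraries had 1.62 to 2.30 RPKM of Appl2, 1.69 to 2.85 RPKM of Camk2b and 4.31 to 6.65 RPKM of Icosl. Those ranges overlap the ranges of HET DN3. Cd160, Klhdc2 and Necab1 were higher in every HET DN3 library than in any WT DN2 library.

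**Figure D3:**
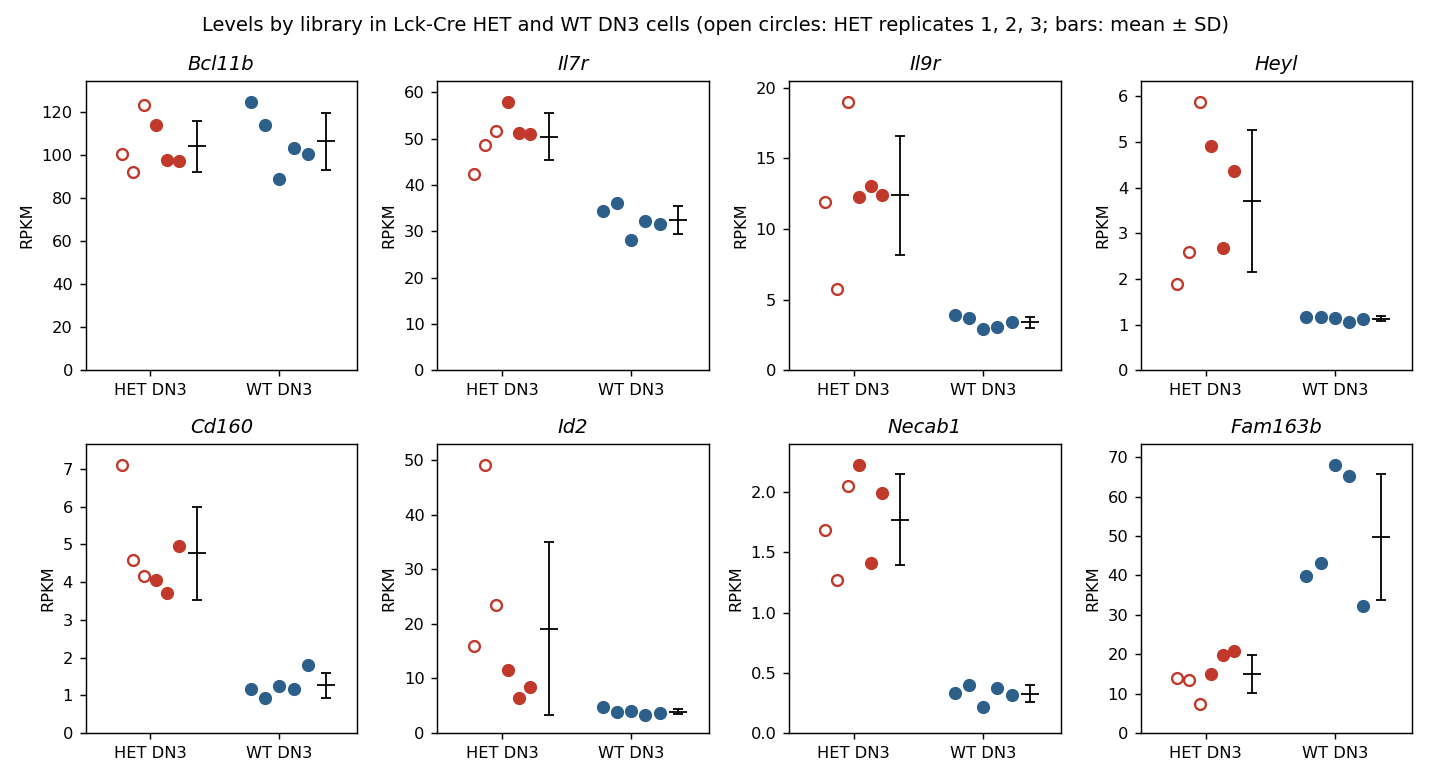
Levels in RPKM of 8 genes in each HET DN3 library (left in each panel) and WT DN3 library (right), with the mean and SD as a bar beside them; open circles are HET replicates 1, 2 and 3. Bcl11b overlaps between the groups, Il7r, Il9r, Heyl, Cd160, Id2 and Necab1 are higher in every HET library than in any WT library, and Fam163b is lower.

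Id2, an inhibitor of E proteins that innate lymphoid cells need, was higher in every HET library than in any WT library, but its size depended on the libraries with foreign RNA. Id2 (NM_010496, mm9 chromosome 12, 25778664 to 25780957, minus strand) had 15.9, 49.1, 23.5, 11.5, 6.44 and 8.39 RPKM in HET replicates 1 to 6 and 4.70, 3.84, 4.0, 3.34 and 3.61 RPKM in WT replicates 1 to 5. The highest HET values were those of replicates 2 and 3, which held epithelial RNA. The exact permutation test of the mean of log2(RPKM + 1) gave a difference of 1.73, HET minus WT (2-sided p = 0.00649, adjusted p = 0.0389 over 6 tests). Without HET replicates 1, 2 and 3 the difference was 0.97 (exact permutation p = 0.0179). In the edgeR fit the log2 fold change was 2.27 (SE 0.63, adjusted p = 0.0385) with all libraries and 1.13 (SE 0.21, adjusted p = 0.0217) without the 8, while the call was lost in 8 of the 11 fits without a single DN3 library. It was also lost without HET replicates 2 and 3 (adjusted p = 0.2), without HET replicates 1, 2 and 3 (adjusted p = 0.599) and without the 6 libraries with epithelial RNA (adjusted p = 0.131), with the other libraries kept in the edgeR fit. Zbtb16, which encodes the innate-lymphocyte factor PLZF, was at most 0.204 RPKM in HET and at most 0.105 RPKM in WT, levels at which a library holds few reads (exact 2-sided permutation test, p = 0.0195, adjusted p = 0.0585). Of the 6 tested E proteins and Id factors, Id2 and Id1 were called higher and Tcf3 lower. Over all genes tested, 4.31% were called higher and 3.06% lower. Id1, another inhibitor of E proteins, had 26 and 12.6 RPKM in HET replicates 2 and 3, at most 2.41 RPKM in the other HET libraries and at most 0.943 RPKM in WT. Its adjusted p was 0.0486 with all libraries and 0.113 without the 8 (edgeR). Tcf3, the gene of the E protein E2A, had 79.7 to 133 RPKM in HET and 140 to 153 RPKM in WT, lowest in HET replicates 1 and 2 (log2 fold change -0.42, SE 0.12, adjusted p = 0.0428, edgeR), and was not called without the 8 libraries (adjusted p = 0.319).

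Among genes for group 2 and 3 ILCs and innate-like T cells, 4 of 15 tested were called higher and 0 lower, with a median log2 fold change of 0.837. Over all genes tested, 4.31% were called higher and 3.06% lower, and the median was 0.0206. The 4 were Il9r, Id2, Maf and Icos, and without the 8 libraries Il9r and Id2 were called. Maf, a transcription factor gene, had 42.8 RPKM in HET replicate 1, 1.46 to 3.31 RPKM in the other HET libraries and 0.829 to 1.99 RPKM in WT. Icos, a costimulatory receptor gene, had 35.2 RPKM in HET replicate 1, at most 2.07 RPKM in the other HET libraries and at most 0.695 RPKM in WT. Both were highest in the library with mature T-cell RNA, and without the 8 libraries neither was called (adjusted p = 0.368 for Maf and 0.0943 for Icos, edgeR).

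Of 26 tested genes for T-lineage identity and pre-TCR signalling, 0 passed with edgeR (5 at an unadjusted p under 0.05, 1 with DESeq2), and their median log2 fold change was -0.0304. With 7.37% of all tested genes called, a count of 0 among 26 is near the background and is no result about the list. Of 15 genes of DN3b, DN4 and double-positive cells, 0 passed (3 unadjusted, 0 with DESeq2), which is also near that background and no result about the list. Cell cycle genes had 3 of 25 called, all lower, with a median of -0.272: Mcm2, a subunit of the replicative helicase, Cdk4, a G1 kinase, and Ccnd3, its cyclin partner. Over all genes tested, 3.06% were called lower. Mcm2 had 127 to 165 RPKM in HET and 175 to 195 RPKM in WT (log2 fold change -0.41, SE 0.10), and Ccnd3 had 110 to 174 RPKM in HET and 189 to 195 RPKM in WT (-0.47, SE 0.13). Both separated the groups, Cdk4 did not, and without the 8 libraries none of the 3 was called (adjusted p from 0.0851 to 0.144, edgeR).

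In the remaining lists few members were called, where 4.31% of all genes tested were called higher and 3.06% lower. A single call in a list is near those shares and is no result about that list. Trafficking and adhesion genes had 3 of 16 called, all higher, with a median of 0.669: Cxcr5, a chemokine receptor gene, Cd44, the hyaluronan receptor gene, and Itga4, an integrin subunit gene. Cxcr5 had 53.9 RPKM in HET replicate 1, at most 0.370 RPKM in the other HET libraries and at most 0.0977 RPKM in WT. Cd44 had 15.8, 17.0 and 6.32 RPKM in HET replicates 1 to 3, 0.721 to 1.42 RPKM in replicates 4 to 6 and 0.223 to 1.18 RPKM in WT. Cd44 was also the only one of 15 stem and progenitor genes called, and Maf the only one of 9 gamma-delta T-cell genes. Itga4 stood at 53.4 to 85.5 RPKM in HET and at 36.9 to 54.2 RPKM in WT, with no single library setting it apart (log2 fold change 0.53, SE 0.12, adjusted p = 0.0247, edgeR). Of 24 genes for Bcl11b cofactors, such as the nucleosome remodelling and deacetylase complex, Mbd3 was called lower (log2 fold change -0.44, SE 0.12) and 0 higher. Among the survival, p53 and apoptosis genes, Trp53, the p53 gene, was called lower (log2 fold change -0.23, SE 0.07). Without the 8 libraries none of Cd44, Itga4, Mbd3 and Trp53 was called. The 19 immediate-early and heat-shock genes had a median of 1.23, and 17 were positive, but 0 passed with edgeR (8 unadjusted, 5 with DESeq2); summed, they ran from 748 to 1296 RPKM in HET and from 580 to 854 RPKM in WT.

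Among the marker lists of other cells, the calls were as follows, where 4.31% of all genes tested were called higher and 3.06% lower. Epithelial markers had 2 of 10 called higher (Clu and Krt7) and 1 lower (Cldn4), erythroid markers 2 of 5 higher (Hba-a1 and Hba-a2, near-identical copies whose reads the counting may split), mature T-cell markers 1 of 14 higher (Icos) and stroma and endothelial markers 1 of 3 higher. With edgeR 0 of 4 B-cell markers (2 unadjusted, 2 with DESeq2), 0 of 13 myeloid and dendritic markers (7 unadjusted, 4 with DESeq2) and 0 of 5 sex-linked genes (0 unadjusted, 0 with DESeq2) were called.

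**Figure D4:**
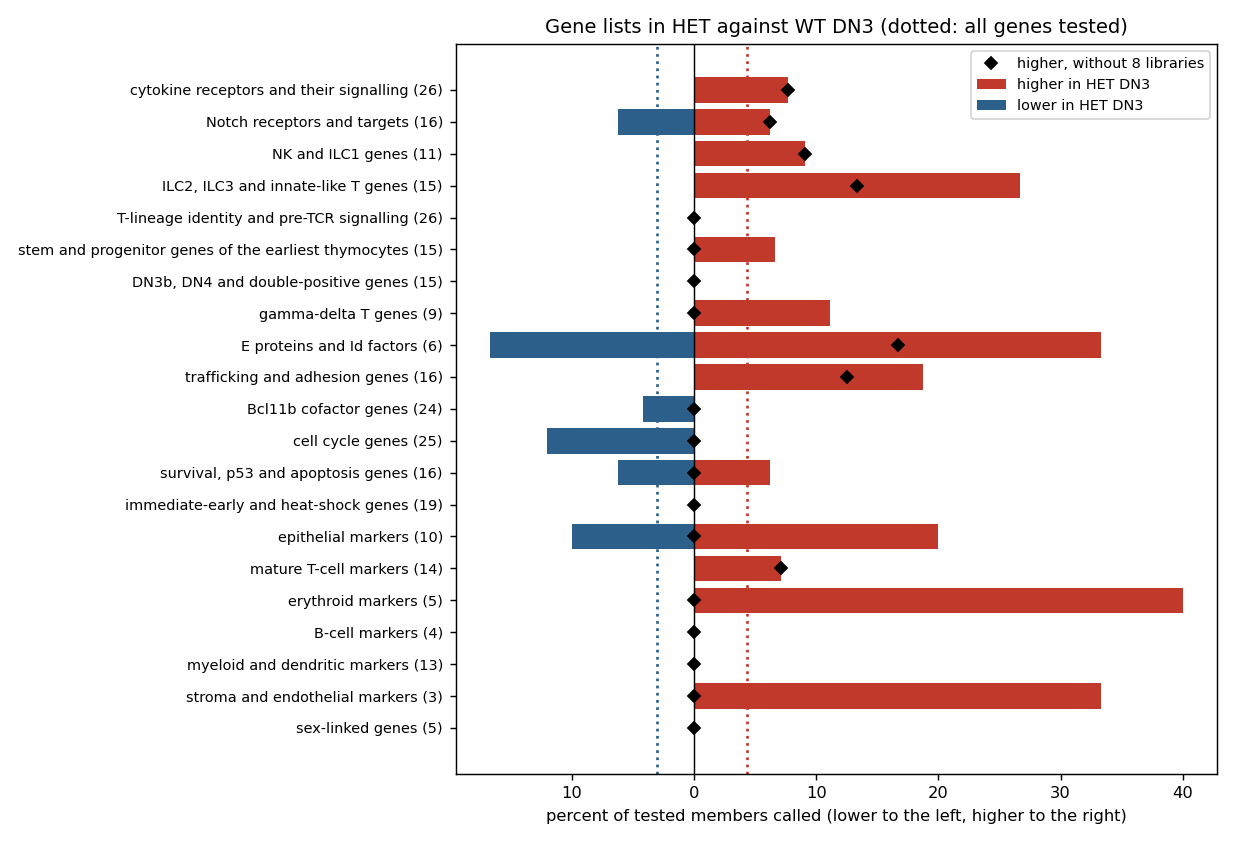
Percent of the tested members of each gene list (number tested in parentheses) called higher (red, right) and lower (blue, left) in HET DN3 against WT DN3 with all libraries; diamonds give the percent called higher without 8 libraries, and dotted lines the 4.31% and 3.06% of all genes tested. T-lineage genes have 0 called in either direction, and cell cycle genes have 3 of 25, all lower.

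The genes of largest fold change that were called with all libraries and lost without HET replicates 1, 2 and 3 were, among those higher, high in HET replicates 2 and 3. Clu, Anxa3, Spp1, Krt7, Ano1 and Ankrd1 had log2 fold changes of 10.27 to 12.06, with 9.21 RPKM or more in HET replicates 2 and 3 and at most 1.33 RPKM in any other DN3 library. Such folds rest on those 2 libraries and turned negative without them for Anxa3, and without HET replicates 1, 2 and 3 for Spp1. Of the genes called lower, Fam163b and Crip1 were low throughout the HET libraries. Fam163b had 13.8, 13.5, 7.34, 14.9, 19.7 and 20.8 RPKM in HET and 39.7, 43.1, 68.0, 65.1 and 32.1 RPKM in WT (log2 fold change -1.77, SE 0.54, adjusted p = 0.0488, edgeR). Crip1, the gene of a small LIM-domain protein, had 333, 410, 489, 463, 442 and 547 RPKM in HET and 719, 632, 848, 821 and 1031 RPKM in WT (-0.90, SE 0.20, adjusted p = 0.0238, edgeR). Every HET library lay below every WT library for both genes, as for 282 of all genes tested (2.31%). Without the 8 libraries neither passed, with adjusted p = 0.245 for Fam163b and 0.102 for Crip1. The tight-junction gene Cldn4, the galectin gene Lgals1, the RNA-binding protein gene Pcbp3 and the proline dehydrogenase gene Prodh were called lower at -0.86, -0.79, -0.73 and -0.70, and only Pcbp3 of these separated the groups.

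Without the 8 libraries, 5 genes were called lower, all named after their values were seen: Ephx3, Rpia, Pex14, Thop1 and Myo1c. Ephx3, an epoxide hydrolase gene, had 0.135, 0, 0.385, 0.272, 0.203 and 0.234 RPKM in HET and 1.33, 1.28, 2.17, 2.90 and 1.07 RPKM in WT, with no overlap (log2 fold change -2.92, SE 0.50, adjusted p = 0.0152, edgeR). Rpia, an enzyme gene of the pentose phosphate pathway, had 29.3 to 35.7 RPKM in HET and 38.4 to 47.3 RPKM in WT, and Pex14, a peroxisomal import gene, had 13.3 to 15.8 RPKM in HET and 18 to 19.7 RPKM in WT. Those changes were small, at -0.36 (SE 0.07) and -0.39 (SE 0.08). Some genes known from mature T cells were called higher in the same setting: Klf2, a transcription factor gene of circulating T cells, had a log2 fold change of 1.76 (SE 0.28, adjusted p = 0.011) and Cxcr5 one of 2.25 (SE 0.40, adjusted p = 0.0179, edgeR), and Art2b, S100a4, Ms4a4b and Ccr2, named after their values were seen, had 3.87, 3.01, 1.19 and 1.68. The HET libraries that remain had 3.56 to 11.8 RPKM of Cd4, against 0.798 to 4.37 RPKM in WT, and the part of mature T-cell RNA in these calls was not tested.

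At DN2, HET and WT cells were not told apart by edgeR: 0 of 12218 genes were called (912 at an unadjusted p under 0.05, 182 with DESeq2). The difference between the HET effect at DN3 and that at DN2, tested as an interaction, gave 0 genes (1112 unadjusted, 20 with DESeq2). Il7r had 32.4 to 60.4 RPKM in HET DN2 and 42.0 to 59.2 RPKM in WT DN2, levels near those of HET DN3, with a log2 fold change of -0.08 (SE 0.13). The DN2 fold changes of Il9r, Heyl and Cd160 were 0.87 (SE 0.48), 0.67 (SE 0.44) and 0.55 (SE 0.22). All 3 genes were highest in HET DN2 replicate 2, a library with epithelial RNA, with Il9r at 10.3 and Heyl at 2.60 RPKM. The other HET DN2 libraries had 0.738 to 2.19 RPKM of Il9r and 0.341 to 0.588 RPKM of Heyl. In WT DN2 these 2 genes had 1.40 to 2.39 and 0.378 to 0.904 RPKM. Without the 8 libraries the interaction was called for 5 genes: Il9r (1.65, adjusted p = 0.00803), Il7r (0.67, adjusted p = 0.0329), Heyl (2.21, adjusted p = 0.0329), Kifc3 (1.15, adjusted p = 0.029) and Cp (5.10, adjusted p = 0.029, edgeR), where Kifc3 and Cp were named after their values were seen. Cp, the ceruloplasmin gene, was itself called lower in HET DN2 in that fit (-4.77, adjusted p = 0.0331). YFP differs between the stages by the sort, so stage and Cre activity cannot be told apart here.

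In the Vav1-iCre cross, whose libraries share no sample with the Lck cross, 46 of 2076 genes (2.22%) were called between HET and WT, 37 higher and 9 lower. That table holds genes selected by their change in HOM in the same cross, so its shares do not describe the whole transcriptome. The 2 Vav WT libraries may have served in that selection as well as here. The adjusted p-values in this cross need therefore not be independent of the selection. Levels there are counts scaled by trimmed means. Il9r had 825, 962, 1002 and 785 scaled counts in Vav HET replicates 1 to 4 and 148 and 165 in the 2 Vav WT libraries, a log2 fold change of 2.52 (SE 0.20, adjusted p = 0.000195, edgeR). Heyl had 299, 379, 239 and 248 scaled counts in Vav HET and 70.8 and 75.8 in Vav WT (1.99, SE 0.23, adjusted p = 0.00121, edgeR). Cd160 had 226, 193, 207 and 159 scaled counts in Vav HET and 57.1 and 69.3 in Vav WT (1.63, SE 0.21, adjusted p = 0.00142, edgeR). All 3 genes were higher in 4 of 4 Vav HET libraries than in either Vav WT library. Il7r is not listed in that table. Of the 46 genes, 43 were tested in the Lck cross, and 41 of these (95.3%) had the same sign in HET DN3 against WT DN3. Over all 1587 genes tested in both crosses the share was 71.6%, and it was 77% over those higher and 67.9% over those lower in Vav HOM. The genes called in both crosses were 12 of the 43, and 12 of the 149 called in Lck DN3 among the 1587 genes tested in both. They were Il9r, Heyl, Cd160, Fam163b and, named after their values were seen, Necab1, Fbp1, Sidt1, Kifc3, Frmd4b, Arsi, 2900026A02Rik and Ephx3. Fam163b and Ephx3 were lower in both crosses, at -2.96 and -3.48 in Vav HET, and the other 10 were higher in both.

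Several of these genes add to the picture of the Lck DN3 cells. Fbp1, a gluconeogenic enzyme gene, had 4.59, 5.80, 26.4, 16.6, 7.60 and 12.4 RPKM in HET DN3 and 2.68, 2.48, 2.02, 1.97 and 3.47 RPKM in WT DN3. Sidt1, a gene of the SID1 transmembrane family, had 3.98, 2.98, 3.38, 2.28, 1.77 and 1.79 RPKM in HET DN3 and 0.466, 0.726, 0.409, 0.517 and 0.582 RPKM in WT DN3. Both separated the groups, and both were called without the 8 libraries (adjusted p = 0.0108 for Fbp1 and 0.0262 for Sidt1, edgeR). Of the 70 genes called higher in Lck DN3 without the 8 libraries, 40 are listed in the Vav table and 37 of these (92.5%) were positive in Vav HET. The share was 52% over all tested genes that the table lists, and 81.5% over the listed genes that were higher in Vav HOM, a group that holds 39 of the 40. Klf2, Art2b, S100a4, Ms4a4b and Ccr2 were not called in Vav HET, where their log2 fold changes were 0.10, 0.67, -0.10, 0.29 and -0.45. Id2 had 0.74 there (SE 0.20, adjusted p = 0.0859, edgeR) and Bcl11b -0.22 (SE 0.21). Klhdc2, Appl2, Camk2b and Crip1 were not called in Vav HET either. Their log2 fold changes were 0.64, 1.24, 1.16 and 0.03 (adjusted p = 0.137, 0.0524, 0.342 and 0.951, edgeR).

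**Figure D5:**
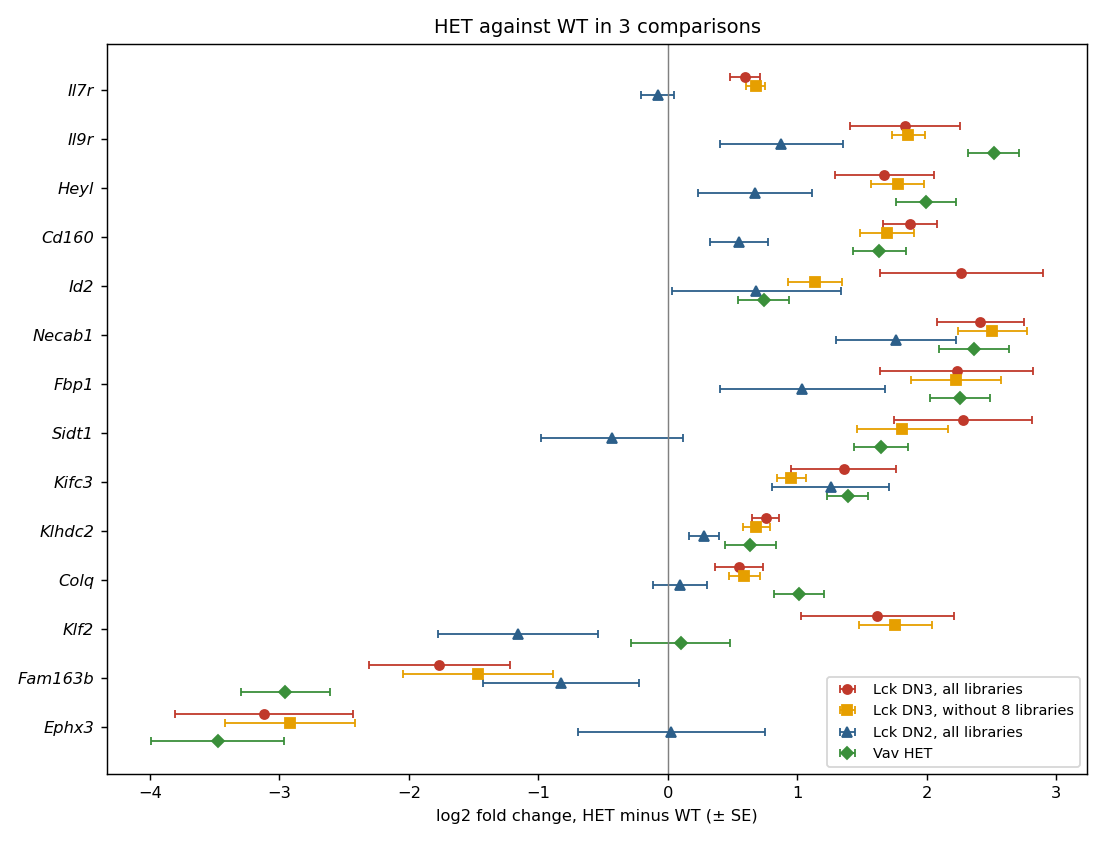
Log2 fold changes of HET against WT with their SE for 14 genes in Lck DN3 with all libraries (circles), Lck DN3 without 8 libraries (squares), Lck DN2 (triangles) and the Vav cross (diamonds; Il7r is not listed there). Il9r, Heyl, Cd160, Necab1, Fbp1 and Sidt1 lie well right of 0 in Lck DN3 and in the Vav cross, and Fam163b and Ephx3 left of it.

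The levels in HOM libraries, which share the WT DN3 libraries as their control and so give no separate test, were set beside those of HET. Il7r averaged 50.4 ± 5.0 RPKM in HET DN3 (SD, n = 6), 91.2 ± 9.28 RPKM in HOM (n = 5) and 32.5 ± 2.99 RPKM in WT DN3 (n = 5). Il9r averaged 12.4 ± 4.19 RPKM in HET DN3, 35.0 ± 7.23 RPKM in HOM and 3.38 ± 0.418 RPKM in WT DN3. Heyl averaged 3.72 ± 1.56 RPKM in HET DN3, 24.3 ± 2.94 RPKM in HOM and 1.13 ± 0.0471 RPKM in WT DN3. For these genes the HET level lay between the others, with no overlap of library values on either side. Cd160 averaged 4.76 ± 1.22 RPKM in HET DN3, 21.8 ± 4.30 RPKM in HOM and 1.26 ± 0.322 RPKM in WT DN3, and Necab1 1.77 ± 0.379, 26.1 ± 6.49 and 0.325 ± 0.0690 RPKM in HET DN3, HOM and WT DN3. Sidt1, at 2.70 ± 0.898 RPKM in HET DN3 and 3.89 ± 0.873 RPKM in HOM, overlapped between these groups, with 0.540 ± 0.122 RPKM in WT DN3.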

How the data were processed

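Gene expression was measured by RNA sequencing of sorted thymocytes with single reads of 50 nt (HiSeq2500, per the labels). Tools named in the submitters' processing notes, in no stated order, are HOMER, STAR 2.4.0, Trimmomatic 033, edgeR 3.6.8 and RSEM 1.2.25, and the builds given there are NCBIM37 and mm9. Per the file headers, the deposited values are raw counts of reads over the exons of each gene, from HOMER and without normalization, although the table's name says RPKM. The deposited Length column is the exon length in bases.

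In 10 of the 25 Lck columns, the 6 HET DN3 columns among them, the values of genes named Marc, March or Sept are missing, and every later value stood beside another gene's name. The values were moved down past those names. In the stretch of 7154 genes from the March to the Sept names, the correlation of HET DN3 columns with the unaffected columns was 0.981 to 0.997 after this and 0.383 to 0.395 before. Left out were 26 such names and 114 hyphenated names of unsettled order, so 24365 genes remained.

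From the counts, RPKM was computed with the exon lengths and column totals. Genes with a mean of at least 1 RPKM in an Lck group were tested with edgeR 4.0.16 (R 4.3.3) by the quasi-likelihood test, with TMM normalization, a trended dispersion and all 25 Lck libraries in 5 groups. P-values are 2-sided, with Benjamini-Hochberg adjustment over all genes of a comparison, and genes were called at an adjusted p under 0.05. The SE is the absolute log2 fold change divided by the square root of F, a poor measure where a group has few counts. The Vav table was fitted separately, with its 4 HET, 2 WT and 3 HOM libraries sharing the estimate of the spread. Permutation tests used the mean of log2(RPKM + 1) and are exact, adjusted over 6 tests. DESeq2 1.42.0, limma 3.58.1 on log2(RPKM + 1), other filters and left-out libraries were alternatives.

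The comparison, its members, the gene lists and the naming rule were chosen with earlier results of these data known. The rule takes Bcl11b, Id2, Zbtb16, Il7r, Il9r, Heyl and Cd160; up to 12 genes per direction called both with all libraries and without HET DN3 replicates 1, 2 and 3, with at least 2 RPKM and no overlap (Cd160 and Klhdc2 met it, and 0 lower genes); the 6 per direction with the largest change that lost their call, with at least 5 RPKM; and up to 4 members per list by adjusted p. A gene that the rule took is not reported here.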

Additional observations from a re-analysis of the deposited data

Results flagged for a closer look

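In 23 of 118 groups of libraries checked, 1 library lay apart from the rest of its group by Dixon's criterion at the 95% level. Chance alone marks about 1 in 20, but this share cannot be weighed against that rate, because of how genes were chosen. Flagged genes such as Clu, Anxa3 and Spp1 were named because their large change lost its call without certain HET DN3 libraries. HET DN3 replicate 1 was the highest of its group for 8 genes: Cd4 at 80.3, Cxcr5 at 53.9, S100a4 at 50.7, Maf at 42.8, Icos at 35.2, Art2b at 20.1, Irak4 at 7.33 and Cd160 at 7.1 RPKM. HET DN3 replicate 2 stood apart for 6, as the highest for Clu at 709, Krt8 at 490, Spp1 at 434, Anxa3 at 98.8 and Appl2 at 3.5 RPKM and as the lowest for Camk2b at 1.87 RPKM.

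In WT DN3 the library apart from the rest was replicate 5 for Appl2 at 0.929, Krt8 at 0.595 and Zbtb16 at 0.105 RPKM. It was replicate 4 for Anxa3 at 0.0212, Ankrd1 at 0.0192 and Ano1 at 0.0147 RPKM, and replicate 2 for Spp1 at 0.199 RPKM, all levels of a few reads. Replicate 3 was the highest for Thop1 at 35.1 RPKM and the lowest for Tnfsf10 at 4.87 RPKM.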

How the results depend on the processing

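The count of genes called in HET DN3 against WT DN3, 900 with all libraries, was 38 without HET replicates 2 and 3, 6 without HET replicates 1 to 3, 212 without the 6 libraries with epithelial RNA and 75 without the 8 libraries. It was 65 with only the DN3 libraries in the fit and 97 with those but not HET replicates 1 to 3, so the drop to 6 depends on which other libraries share in the spread. DESeq2 called 1877, limma 458 with a pseudocount of 1 and 537 with 0.1, and edgeR 438 with no RPKM filter; TMM against DESeq2's size factors (899) and a filter at 5 RPKM (837) stayed within 1.5 times. Without the 3 Xist-positive libraries (HET 2 and 6, WT 4), a setting chosen after seeing the data, 33 were called. Single DN3 libraries left out gave 10 to 1662 calls. With the replicate number as a block, in a fit of only HET DN3 and WT DN3 replicates 1 to 5, 350 genes were called. Of these, 159 were among the 900, and the count compares with the 65 of the DN3 libraries alone rather than with 900. The permutation tests of Id2 (1.889, p = 0.0625) and Zbtb16 (0.08805, p = 0.0625), paired over the same libraries, did not pass, and 5 pairs cannot reach a smaller p. Equal numbers do not pair samples by the labels, their residuals correlated at -0.0107 to 0.0967 across genes, and not every HET library correlated best with its own number.

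In HET DN2 against WT DN2, 0 calls became 1 without the 8 libraries and 182 with DESeq2. The difference between stages gave 5 without the 8 libraries, 1 without WT DN3 replicate 5 and 20 with DESeq2, and 0 to 1 over single libraries left out. Calls in Vav HET, 46, were 39 with only the Vav WT and HET libraries in the fit. They were 24 to 63 with 1 library left out, lowest without Vav WT replicate 1 (28 without Vav WT replicate 2, 29 without Vav HET replicate 2). Bcl11b's difference ran from -0.08924 to 0.0303 over single libraries left out and turned to 0.00536 without HET DN3 replicate 2 and 0.0303 without WT DN3 replicate 1.

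Among single genes, Clu turned to -0.04124 without the 8 libraries and -0.01906 in the fit of DN3 libraries alone without HET 1 to 3. Anxa3 turned to -1.246 without HET 2 and 3, -1.256 without HET 1 to 3, -1.229 without the 6, -1.254 without the 8 and -1.288 in the fit of DN3 libraries alone without HET 1 to 3. Spp1 turned to -3.767 without HET 1 to 3, -3.832 without the 8 and -3.873 in that last fit. Of the other values of named genes, 2148 kept direction and side of the threshold, 630 lost a call and 90 gained one; the cause was not tested.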
